A study of Mus musculus with 10 samples.

Results

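The mitochondrial carriers of the SLC25 family and the uncoupling proteins *Ucp2* and *Ucp3* were examined in gastrocnemius muscle of smoke-exposed mice. Members were the protein-coding genes of the mouse annotation (GRCm38) whose symbol starts with Slc25a, together with *Ucp2* and *Ucp3*, a rule that uses names and no measured value. This gave 49 genes among the 49315 gene rows of the count table, 47 of them Slc25a genes, spread over 19 chromosomes. RNA from 10 male mice on the C57BL6J background was sequenced, 5 AHRfl mice (animals 11, 12, 13, 15 and 33) with loxP sites in the gene of the aryl hydrocarbon receptor (AHR), and 5 AHRmKO mice (animals 8, 9, 19, 22 and 34) that also carried the tamoxifen-dependent Cre recombinase MerCreMer under the human skeletal actin promoter. That promoter drives Cre in muscle fibres, so other cells of the muscle keep the receptor. Controls were floxed littermates without Cre, and the study timed the smoke exposure of both genotypes from tamoxifen delivery. All 10 mice had inhaled cigarette smoke for 16 weeks, on 5 days per week in 2 sessions of 1 h per day, at 220 ± 80 mg/m3. Muscle was taken days after the last exposure, not directly after it. No mouse breathing only air was among these libraries, so the comparison is of genotypes after chronic smoke exposure.

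SLC25 carriers are encoded in the nucleus and nearly all sit in the inner mitochondrial membrane, where each exchanges or imports a particular set of small molecules. In muscle the adenine nucleotide translocase hands ATP to the cytosol in exchange for ADP and the phosphate carrier supplies phosphate to ATP synthase, while other members carry malate, aspartate, acylcarnitines, coenzymes, iron or amino acids. Uncoupling proteins belong to the same family by sequence, and *Ucp3* is the form typical of skeletal muscle.

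Total counts were between 30393035 and 37954388 per mouse, and the members took 0.559% to 0.699% of them. The muscle fibre markers summed to between 79770 and 103180 CPM, the counts of a gene scaled to a common library size. *Ahr* had 43 to 110 counts in AHRfl mice and 31 to 80 in AHRmKO mice summed over all exons, so these overlapping values do not check the deletion. *Esr1*, whose ligand-binding part is carried by MerCreMer, had 544 to 658 counts in AHRfl and 9770 to 24975 in AHRmKO mice, and was the only gene called of 14714 tested. *Xist*, a transcript of female cells, had 44 to 75 counts in 5 libraries (3 AHRfl, 2 AHRmKO) and 0 to 3 in the other 5, although the study describes all mice as male and the Y-linked *Ddx3y* had 1852 to 2723 counts in each. Summed slow fibre markers ranged from 65.8 to 1754 CPM in AHRfl and from 225.5 to 2112 CPM in AHRmKO mice. Fewer cells of a type and less RNA per cell cannot be told apart in such bulk samples.

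Carriers of adenine nucleotides and phosphate made up 72.9% to 75.8% of the family's CPM. Levels were compared between genes as CPM per kilobase of exon. *Slc25a4*, the muscle adenine nucleotide translocase, stood at a median of 1634 CPM per kb (1407 to 1727 over the 10 mice). It took 56.5% to 60.7% of the members' CPM in each mouse. *Slc25a3*, the phosphate carrier, followed at a median of 149.4 CPM per kb (128.9 to 170.6). *Slc25a5*, the translocase of dividing cells, was at 22.7 CPM per kb, and its CPM was 0.810% to 1.16% of that of *Slc25a4*. *Slc25a31*, the testis translocase, had at most 1 count in any mouse. The 4 ATP-Mg/phosphate carriers differed widely, from *Slc25a25* with a mean of 16.9 CPM per kb to *Slc25a41* with 0.0492. These translocases are close paralogs counted from uniquely mapped reads, so reads from shared stretches are lost, and the pseudogene *Slc25a5-ps* had 1 to 4 counts.

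**Figure D1:**
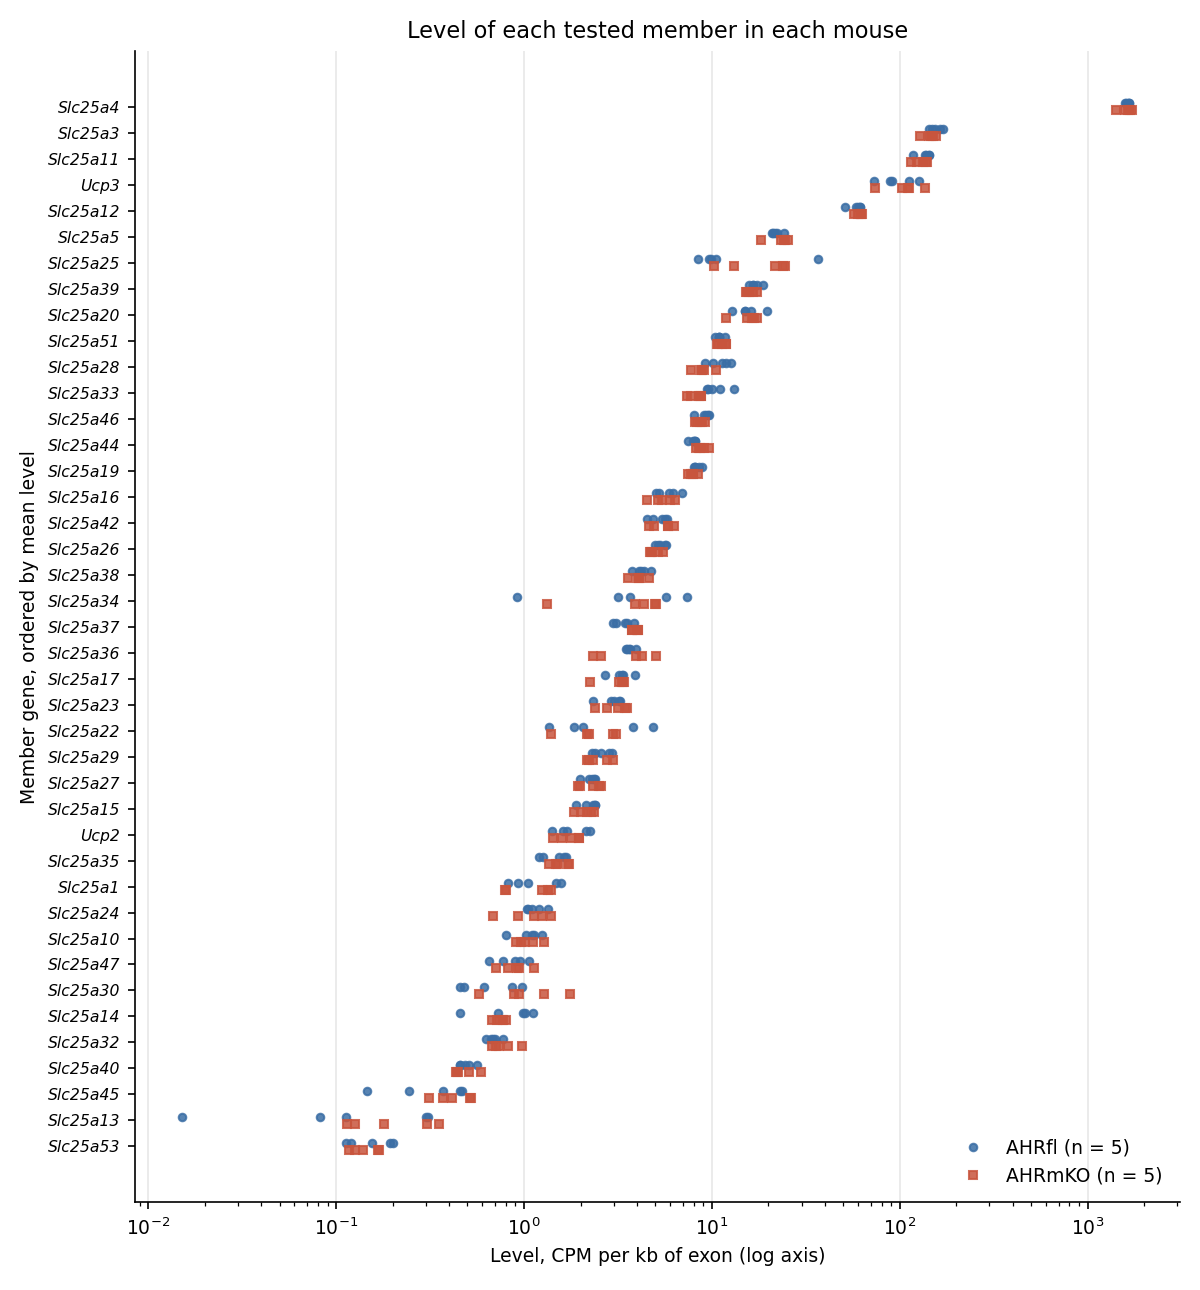
Level of the 41 tested members in each of the 10 mice, in CPM per kb of exon on a log axis, ordered by mean level; circles are AHRfl and squares AHRmKO mice. *Slc25a4* lies apart from every other member, between 1407 and 1727, while the lowest value drawn is 0.0152, for *Slc25a13* in AHRfl 12.

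Next in level came carriers of several other roles. *Slc25a11*, the oxoglutarate/malate carrier, was at a median of 137.4 CPM per kb, *Ucp3* at 107.0 and *Slc25a12*, the calcium-regulated aspartate/glutamate carrier aralar, at 60.7. *Slc25a20*, which brings acylcarnitines to fatty acid oxidation, was at 15.8. The iron and glutathione group was led by *Slc25a39* (16.5), a glutathione carrier, and *Slc25a28* (9.67), which is mitoferrin 2. *Slc25a51*, the NAD carrier, led the coenzyme and nucleotide group at 10.9. *Ucp2* had a mean of 1.78 CPM per kb, and its CPM was 2.48% to 5.39% of that of *Ucp3*. The means of 11 members were over 10 CPM per kb, those of 22 lay between 1 and 10, and those of 16 were at 1 or less.

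Few neighbours in the order of levels were separate. *Slc25a4* exceeded *Slc25a3* and *Slc25a3* exceeded *Slc25a11* in 10 of 10 mice, although the ranges of the latter pair overlapped, and *Slc25a11* exceeded *Ucp3* in 9 of 10. Ranges over mice overlapped for 42 of the 48 pairs of neighbours in the order. Per coding length in place of exon length, the same 5 genes led (*Slc25a4*, *Slc25a3*, *Ucp3*, *Slc25a11*, *Slc25a12*), with *Ucp3* then above *Slc25a11*.

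The comparison of genotypes asked whether deletion of the receptor in fibres moved carrier transcripts after chronic smoke exposure. None of the 41 members with enough counts passed the test. With edgeR's quasi-likelihood test 0 of 41 had an adjusted p under 0.05, against 0.0068% of all genes tested, and 0 were called by DESeq2 or limma-voom. At an unadjusted p under 0.05 there were 5 members, 3 higher in AHRmKO mice (*Slc25a37*, *Slc25a44* and *Slc25a30*) and 2 lower (*Slc25a33* and *Slc25a28*), against 6.61% of all genes, or 3.23% higher and 3.38% lower. DESeq2, which tested all 49 members, gave 5 (3.62% of all genes it tested), and limma-voom gave 4 (6.74% of all genes). The values of the genotypes did not overlap for 2 of 41 members, 1 in each direction, against 1.4% of all genes (0.686% higher, 0.714% lower). Fitted log2 fold changes were below 0 for 25 members and above 0 for 16, with a median of -0.03 beside 0.0056 over all genes, of which 48.5% were below 0. That median was 0.0040 without AHRmKO 19 and 0.011 without AHRmKO 34. The log2 fold changes of 26 members were within 0.1 of 0, and the 95% intervals reached less than 0.3 to either side for 27 members, the narrowest 0.12 and the widest 1.27.

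**Figure D2:**
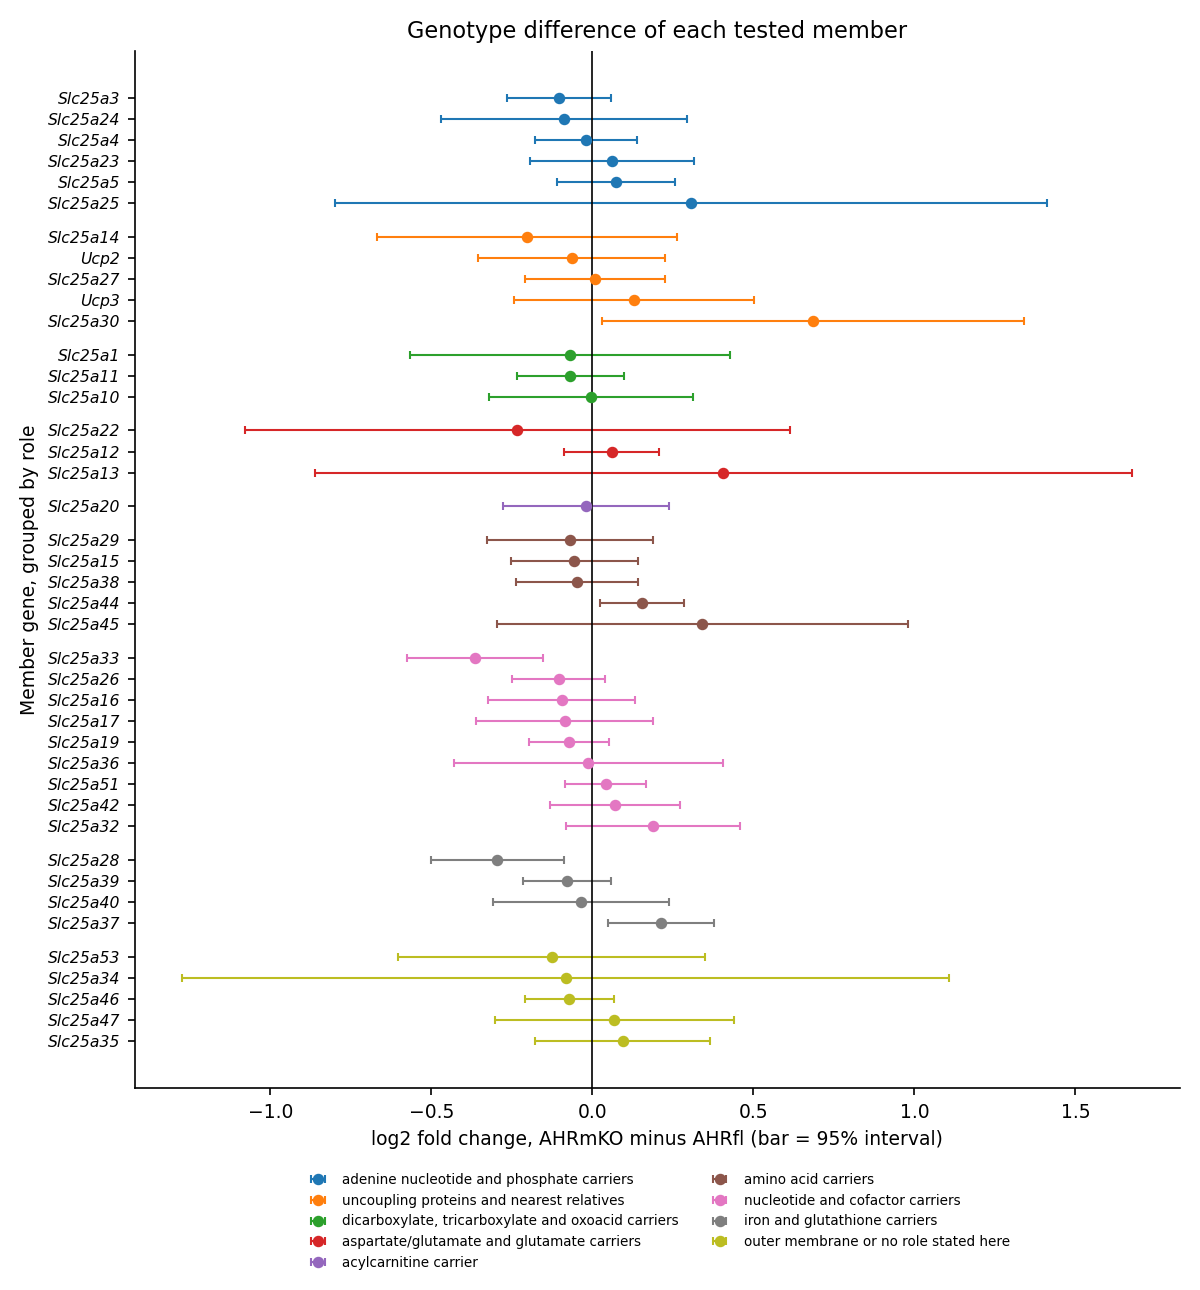
Fitted log2 fold change of the 41 tested members, AHRmKO minus AHRfl, with 95% intervals, in colours by role. The intervals of 5 members exclude 0 before adjustment, and *Slc25a13*, *Slc25a34* and *Slc25a25* have the widest ones.

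*Slc25a33*, which carries pyrimidine nucleotides into mitochondria, had the lowest unadjusted p of the family. In AHRfl mice 11, 12, 13, 15 and 33 it was at 17.8, 24.8, 17.9, 18.9 and 20.8 CPM. In AHRmKO mice 8, 9, 19, 22 and 34 it was at 14.7, 16.5, 13.8, 16.5 and 16.2 CPM. Every AHRmKO value lay under every AHRfl value, and AHRfl 12 was the highest. The means were 20.03 ± 2.94 CPM and 15.5 ± 1.22 CPM, each with its SD over 5 mice. This came to a log2 fold change of -0.37 (SE 0.098, unadjusted p = 0.00245, adjusted p = 0.606, edgeR), and a two-sided exact permutation test gave p = 0.00794, the smallest that 5 against 5 mice allow. It ran from -0.41 to -0.28 with each mouse left out, the latter without AHRfl 12, and the lowest adjusted p under any alternative was 0.189, with DESeq2. An antisense gene, *Gm13068*, overlaps 14.9% of its exon length on the other strand and was at 0.309 CPM in AHRfl and 0.221 CPM in AHRmKO mice. The other pyrimidine nucleotide carrier, *Slc25a36*, spanned 33.3 to 38.1 CPM in AHRfl and 22.3 to 48.4 CPM in AHRmKO mice, a log2 fold change of -0.01 (95% interval -0.43 to 0.41) that ran from -0.16 to 0.11 with each mouse left out.

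The mitoferrins, which bring iron into the matrix, had fold changes of opposite sign, and neither passed adjustment. *Slc25a28*, the form of most tissues, was at 42.2, 47.5, 44.4, 37.99 and 34.5 CPM in AHRfl mice and at 29.2, 34.02, 33.2, 32.8 and 39.2 CPM in AHRmKO mice, in the order of animals above. AHRmKO 34 reached into the AHRfl range and the rest lay below it. The fit gave a log2 fold change of -0.29 (SE 0.096, adjusted p = 0.628, edgeR; two-sided exact permutation p = 0.0317). With the slow fibre level as a covariate it was -0.22 (adjusted p = 0.445, edgeR). *Slc25a37* (chr14:69241848-69285112, GRCm38, minus strand), the form abundant in red cell precursors, was at 20.7, 21.3, 23.2, 18.5 and 18.0 CPM in AHRfl and at 24.0, 24.3, 22.6, 24.5 and 22.5 CPM in AHRmKO mice. Only AHRfl 13 overlapped the AHRmKO values. Its log2 fold change was 0.21 (SE 0.077, adjusted p = 0.665, edgeR; two-sided exact permutation p = 0.0238). The ratio of *Slc25a37* to *Slc25a28*, chosen after these values were seen and so not tested, was 0.450 to 0.523 in AHRfl and 0.573 to 0.823 in AHRmKO mice. Erythroid markers had positive log2 fold changes in 5 of 5 genes, with a median of 0.51, and summed to 104.9 to 320.6 CPM in AHRfl and 143.1 to 482.5 CPM in AHRmKO mice; none was at 0. Their part in the *Slc25a37* result was not tested.

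*Slc25a44* (chr3:88410498-88425139, GRCm38, minus strand), the mitochondrial carrier of branched-chain amino acids, was at 28.8, 28.4, 29.2, 29.1 and 26.8 CPM in AHRfl mice. In AHRmKO mice it was at 29.6, 32.5, 31.1, 30.4 and 34.7 CPM. Each AHRmKO value was above each AHRfl value, by little for AHRmKO 8. The fitted log2 fold change was 0.15 (SE 0.061, adjusted p = 0.691, edgeR; two-sided exact permutation p = 0.00794). *Slc25a30*, a relative of the uncoupling proteins, had the largest fold change among the members tested in the main edgeR fit, though not under every alternative. It was at 2.08, 4.44, 2.20, 3.95 and 2.81 CPM in AHRfl and at 5.86, 4.31, 2.63, 7.99 and 4.07 CPM in AHRmKO mice, and the groups overlapped. Its log2 fold change was 0.69 (95% interval 0.03 to 1.34, adjusted p = 0.734, edgeR; two-sided exact permutation p = 0.103), which became 0.45 without AHRmKO 22 and 0.60 with the slow fibre level as a covariate.

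**Figure D3:**
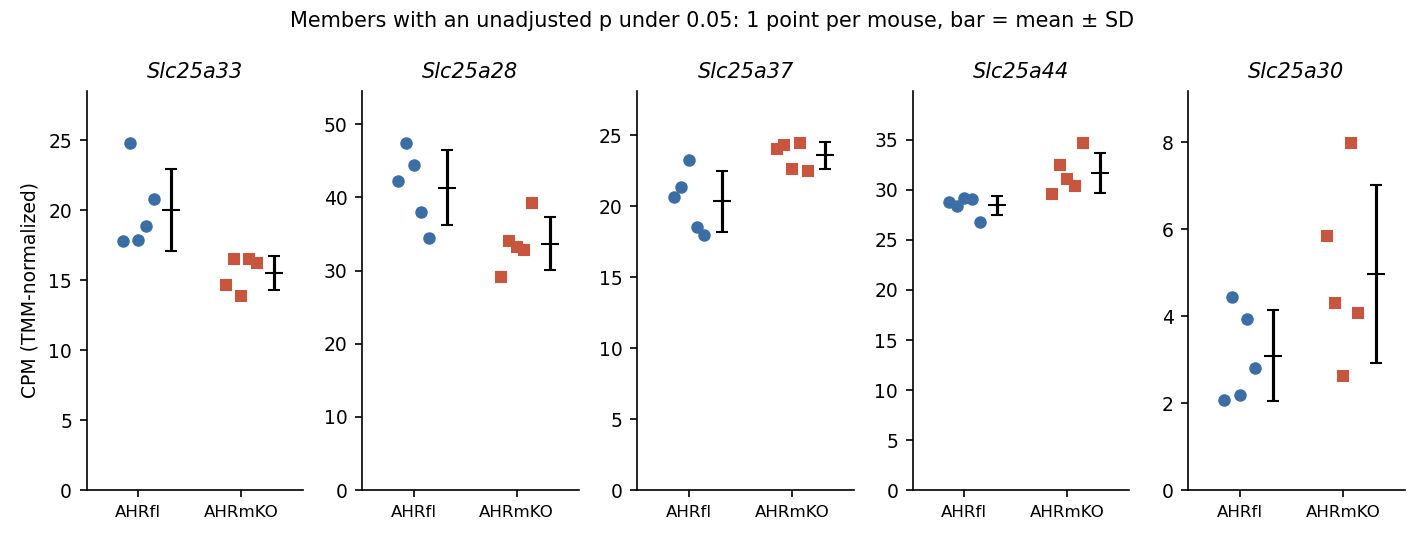
CPM of the 5 members with an unadjusted p under 0.05, 1 point per mouse (circles AHRfl, squares AHRmKO), with the mean and SD of 5 mice beside each group. The groups separate in *Slc25a33* and *Slc25a44* and overlap in *Slc25a28*, *Slc25a37* and *Slc25a30*.

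Promoter sequence was looked up because AHR with its partner ARNT binds DNA at the xenobiotic response element, whose core is GCGTG. RefSeq promoters (GRCm38.p6, 250 bases before to 50 after a start site) were held for 38 members, among them 3 of the 5 genes just described. The 250 bases upstream are shown for these, 5′ to 3′ on the strand of the gene, with GCGTG or its reverse complement CACGC in capitals. They lie at chr4:149774268-149774517 for *Slc25a33*, chr19:43674882-43675131 for *Slc25a28* and chr14:75787038-75787287 for *Slc25a30*, all on the minus strand.
Slc25a33: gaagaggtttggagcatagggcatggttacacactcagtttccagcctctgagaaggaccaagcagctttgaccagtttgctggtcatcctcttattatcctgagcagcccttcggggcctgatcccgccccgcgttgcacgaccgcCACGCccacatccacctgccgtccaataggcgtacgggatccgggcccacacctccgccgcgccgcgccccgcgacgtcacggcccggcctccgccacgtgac
Slc25a28: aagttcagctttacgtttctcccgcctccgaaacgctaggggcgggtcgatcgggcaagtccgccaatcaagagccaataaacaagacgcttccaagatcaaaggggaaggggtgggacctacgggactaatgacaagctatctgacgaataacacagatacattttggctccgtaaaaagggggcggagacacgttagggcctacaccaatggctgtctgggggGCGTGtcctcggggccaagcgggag
Slc25a30: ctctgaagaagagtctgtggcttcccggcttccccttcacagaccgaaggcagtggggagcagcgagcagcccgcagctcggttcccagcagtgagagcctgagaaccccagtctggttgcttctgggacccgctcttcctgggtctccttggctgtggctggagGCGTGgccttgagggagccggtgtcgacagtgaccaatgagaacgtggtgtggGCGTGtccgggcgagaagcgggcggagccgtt
The core begins at base -103 in *Slc25a33*, at -25 in *Slc25a28* and at -85 and -32 in *Slc25a30*, counted back from the start site. It was common in general: 19 of 32 tested members with a promoter held it on either strand (59.4%), beside 54.7% of all tested genes with one, and 22 of all 38 members (57.9%) beside 35.2% of all genes in the table. The share among tested members was thus near that of tested genes. *Slc25a4*, *Ucp3*, *Slc25a12* and *Slc25a20* had no match in this window, while *Slc25a3* (at -81 and -61) and *Slc25a11* (at -37) had. A match is a description of letters and says nothing of binding in these muscles.

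For the carriers of oxidative phosphorylation the genotypes overlapped. *Slc25a4* averaged 3834 CPM in AHRfl (SD 88.7) and 3780 CPM in AHRmKO mice (SD 291), over 5 mice each. AHRmKO 34, at 3310 CPM, was the lowest and AHRmKO 19, at 4064 CPM, the highest. Between genotypes its log2 fold change was -0.02 (95% interval -0.18 to 0.14), and 0.02 without AHRmKO 34. *Slc25a3* was at 866 ± 62.7 CPM in AHRfl and 805.5 ± 57.2 CPM in AHRmKO mice, with a log2 fold change of -0.10 (95% interval -0.27 to 0.06). With each mouse left out this ran from -0.14 (without AHRfl 12) to -0.064 (without AHRmKO 34). With the slow fibre level as a covariate it was -0.14 (unadjusted p = 0.0469, adjusted p = 0.643, edgeR). *Slc25a5* had a log2 fold change of 0.07 (95% interval -0.11 to 0.26), and 0.15 without AHRmKO 9, its lowest mouse (unadjusted p = 0.0428, adjusted p = 0.884, edgeR). Changes as large as 0.3 in either direction lie outside these 3 intervals, which were fitted on all 10 mice.

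*Slc25a25*, an ATP-Mg/phosphate carrier regulated by calcium, varied most among the abundant members. It was at 66.0, 290, 83.0, 77.7 and 75.8 CPM in AHRfl mice and at 171, 103, 80.7, 191 and 188 CPM in AHRmKO mice. AHRfl 12 exceeded every other mouse, and 4 AHRmKO mice (8, 9, 22 and 34) stood above the remaining 4 AHRfl mice. Across all mice the log2 fold change was 0.31 (95% interval -0.80 to 1.41), and with each mouse left out it ran from 0.15 (without AHRfl 11) to 0.96 (without AHRfl 12; unadjusted p = 0.00729, adjusted p = 0.656, edgeR).

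The uncoupling proteins spread widely within each genotype. *Ucp3* was at 228, 395, 286, 349 and 278 CPM in AHRfl and at 232, 322, 425, 349 and 353 CPM in AHRmKO mice. The lowest mice were 1 of each genotype, and the ranges overlapped over most of their length. A log2 fold change of 0.13 was fitted (95% interval -0.24 to 0.50; two-sided exact permutation p = 0.476), which was 0.036 without AHRmKO 19 and 0.24 without AHRmKO 8. *Ucp2*, the form of immune and many other cells, was at 12.7 ± 2.53 CPM in AHRfl and 12.2 ± 1.61 CPM in AHRmKO mice (SD over 5 mice), and its log2 fold change was -0.06 (95% interval -0.36 to 0.23). Leucocyte markers summed to 15.9 to 26.7 CPM and 13.4 to 31.9 CPM in the respective genotypes. The brown fat gene *Ucp1* had at most 1 count.

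The shuttle and fuel carriers also overlapped. *Slc25a11* had a log2 fold change of -0.07 (95% interval -0.23 to 0.10) and *Slc25a12* of 0.06 (95% interval -0.09 to 0.21). With each mouse left out *Slc25a11* ran from -0.12 (without AHRfl 12) to -0.027 (without AHRmKO 34). *Slc25a12* ran from 0.013 (without AHRfl 12) to 0.083 (without AHRmKO 34). The log2 fold change of *Slc25a20* was -0.02 (95% interval -0.28 to 0.24), and it was 0.07 without AHRfl 15. *Slc25a1*, which exports citrate, had -0.07 (95% interval -0.57 to 0.43). The glutathione carriers *Slc25a39* and *Slc25a40* had -0.08 (95% interval -0.22 to 0.06) and -0.03 (95% interval -0.31 to 0.24). *Slc25a51*, for NAD, varied little, at 60.5 ± 2.49 CPM and 62.2 ± 3.34 CPM in the respective genotypes, with 0.04 (95% interval -0.08 to 0.17). *Slc25a46*, an outer membrane protein of mitochondrial dynamics, had -0.07 (95% interval -0.21 to 0.07). *Slc25a45* had 0.34 (95% interval -0.30 to 0.98) and *Slc25a53* -0.13 (95% interval -0.60 to 0.35), both at low counts. With each mouse left out *Slc25a45* ran from 0.15 (without AHRfl 12) to 0.49 (without AHRfl 33). *Slc25a53* ran from -0.23 (without AHRfl 13) to -0.020 (without AHRfl 15). By role, negative log2 fold changes were found in 6 of 9 nucleotide and coenzyme carriers, 3 of 4 iron and glutathione carriers, 3 of 3 di- and tricarboxylate carriers, 3 of 5 amino acid carriers, 3 of 5 of the outer membrane or without a stated role, 3 of 6 adenine nucleotide and phosphate carriers, 2 of 5 uncoupling proteins and relatives, 1 of 3 aspartate/glutamate and glutamate carriers and the acylcarnitine carrier, beside 48.5% of all genes.

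Partners and regulators of the carriers gave no call either. Of 18 genes that work with carriers (pyruvate carrier subunits, porins, shuttle dehydrogenases and transaminases, carnitine enzymes), 0 passed adjustment in edgeR, 3 had an unadjusted p under 0.05, against 6.61% of all genes, and 14 had negative log2 fold changes, against 48.5% of all genes, with a median of -0.05. *Gpd1*, the cytosolic enzyme of the glycerol phosphate shuttle, had 0.25 (adjusted p = 0.668, edgeR) and *Ppif*, cyclophilin D, -0.22 (adjusted p = 0.665, edgeR). Of 8 regulators of mitochondrial genes 0 passed adjustment in edgeR and 1 had an unadjusted p under 0.05, *Esrra*, the oestrogen-related receptor alpha, at -0.15 (adjusted p = 0.665, edgeR). These 3 genes were named after their values were seen. Among 71 nuclear subunits of oxidative phosphorylation (OXPHOS) 67 had negative log2 fold changes, with a median of -0.10, against 48.5% below 0 and a median of 0.0056 over all genes. Of the 71, 7 had an unadjusted p under 0.05, all 7 lower (3.38% of all genes were), and 0 passed adjustment in edgeR. In the same comparison slow fibre markers had positive log2 fold changes in 7 of 7 genes (median 0.43) and Schwann cell markers negative ones in 5 of 5 (median -0.28), while erythroid and endothelial markers were positive in 5 of 5 each (medians 0.51 and 0.14), with 0 called in edgeR and no unadjusted p under 0.05. Schwann cell markers summed to 39.1 to 79.5 CPM in AHRfl and 19.2 to 71.1 CPM in AHRmKO mice. Their part in the OXPHOS values was not tested.

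The carriers were then followed mouse by mouse against that OXPHOS level, the mean log2 CPM of the 71 genes, which was 8.18 ± 0.0577 (SD, n = 5) in AHRfl and 8.09 ± 0.109 (SD, n = 5) in AHRmKO mice. Those most closely related to it were the phosphate carrier, a glutathione carrier, the oxoglutarate/malate carrier and the translocase *Slc25a4*, but no correlation passed adjustment over all genes. An unadjusted permutation p under 0.05 was found for 7 of 41 members over the 10 mice, 6 of them positive, against 9.51% of the 14643 tested genes outside the score (4.49% positive). With p-values adjusted over the 41 correlations, as below, 4 were under 0.05, and all 4 were positive. At r of at least that of *Slc25a4*, the lowest of the 4, stood 0.867% of all genes. Adjusted over all genes, 0 members and 0 other genes were under 0.05, and the lowest value among members was 0.120, for *Slc25a3*. Among other members of high level r was 0.202 for *Slc25a12*, 0.296 for *Slc25a5* and 0.602 for *Slc25a20*, and with each genotype centred on its own mean 0.472, 0.502 and 0.671. *Slc25a3* had r = 0.919 (permutation p = 9e-05, adjusted p = 0.00369; rho = 0.915, permutation p = 0.00058). *Slc25a39* had r = 0.847 (permutation p = 0.00205, adjusted p = 0.0420; rho = 0.782, permutation p = 0.0107). *Slc25a11* had r = 0.819 (permutation p = 0.00464, adjusted p = 0.0476; rho = 0.867, permutation p = 0.00219), and *Slc25a4* r = 0.785 (permutation p = 0.00406, adjusted p = 0.0476; rho = 0.721, permutation p = 0.0222). Without AHRmKO 9 and 34, the mice farthest from the median, r was 0.847 for *Slc25a3*, 0.851 for *Slc25a39*, 0.821 for *Slc25a11* and 0.491 for *Slc25a4*. Leaving out these mice also narrows the range of the level, and with 8 mice 0 members had an adjusted p under 0.05. With any single mouse left out, r of *Slc25a4* lay between 0.620 and 0.845. With each genotype centred on its own mean the r of these 4 members, in the same order, were 0.893, 0.802, 0.808 and 0.828. All genes were measured in the same libraries, and scaling by total counts alone raised them to between 0.882 and 0.970.

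At the other end *Slc25a44* had r = -0.690 (permutation p = 0.0270, adjusted p = 0.158; rho = -0.503, permutation p = 0.144). *Slc25a25* had r = -0.605 (adjusted p = 0.297 by permutation) and *Slc25a37* r = -0.588 (adjusted p = 0.307 by permutation). Without the same pair of mice these r were -0.122, -0.703 and -0.627. With each genotype centred on its own mean they were -0.548, -0.531 and -0.375. *Ucp3* did not follow the OXPHOS genes (r = 0.098, permutation p = 0.784), whereas *Ucp2* had r = 0.756 (permutation p = 0.0125, adjusted p = 0.102). A difference between these 2 correlations was not tested.

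Against the slow fibre level *Slc25a13* had the closest relation of the family. This level, a mean log2 CPM over 7 genes, was 2.07 in AHRfl 12, between 3.71 and 4.83 in AHRfl 11 and 13 and AHRmKO 9 and 34, 5.92 in AHRmKO 19, and between 7.08 and 7.94 in AHRfl 15 and 33 and AHRmKO 8 and 22. The widest gap, 1.64, was between AHRfl 12 and the next mouse. *Slc25a13*, citrin, the aspartate/glutamate carrier best known from liver, followed this level closely. It was at 0.426, 0.0577, 0.310, 1.14 and 1.17 CPM in AHRfl mice and at 1.16, 0.434, 0.685, 1.34 and 0.478 CPM in AHRmKO mice, in counts from 2 in AHRfl 12 to 51 in AHRmKO 22. The 4 mice richest in slow fibre transcripts were its 4 highest and AHRfl 12 its lowest. It had r = 0.950 (permutation p = 6e-05, adjusted p = 0.00246; rho = 0.867, permutation p = 0.00204, adjusted p = 0.0836). The r was 0.972 without AHRfl 12 and AHRmKO 8, 0.949 with each genotype centred and between 0.944 and 0.970 with each mouse left out. Adjusted over all 14707 tested genes outside the score, its p was 0.0433. Of those genes 0.286% were under 0.05, and 0.0816% had an r at least as high. By Pearson's r *Slc25a13* was the only member with a p adjusted over the 41 under 0.05. In all, 5 members passed with each genotype centred, 5 with total counts only and 0 by Spearman's rho. *Slc25a12*, its muscle counterpart, ranged only from 374 to 460 CPM (r = 0.714, adjusted permutation p = 0.0730; rho = 0.442), and *Slc25a13* was 0.0154% to 0.292% of it. Between genotypes the log2 fold change of *Slc25a13* was 0.41 (95% interval -0.86 to 1.68), with 0.11 without AHRfl 12, 0.76 without AHRfl 33 and 0.85 by limma-voom.

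*Slc25a34*, an orphan carrier, and *Slc25a22*, a glutamate carrier, came next. *Slc25a34* was at 8.41, 2.45, 9.76, 19.6 and 15.2 CPM in AHRfl and at 13.4, 10.4, 11.6, 13.2 and 3.56 CPM in AHRmKO mice, with AHRfl 12 and AHRmKO 34 far below the rest. It had r = 0.771 (permutation p = 0.00396, adjusted p = 0.0730; rho = 0.818, permutation p = 0.00621), and 0.613 without AHRfl 12 and AHRmKO 8. *Slc25a22* spanned 8.10 to 29.2 CPM in AHRfl and 8.34 to 18.5 CPM in AHRmKO mice. It had r = 0.762 (permutation p = 0.0127, adjusted p = 0.0730; rho = 0.745, permutation p = 0.0181), and 0.829 without those mice. Neither passed the adjusted threshold.

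Members that ran against the slow fibre level were led by *Slc25a16*, which carries coenzyme A or its precursors, at r = -0.790 (permutation p = 0.00827, adjusted p = 0.0730; rho = -0.721). *Slc25a28* had r = -0.756 (permutation p = 0.0130, adjusted p = 0.0730; rho = -0.697) and *Slc25a46* r = -0.753 (permutation p = 0.0142, adjusted p = 0.0730; rho = -0.709). Without AHRfl 12 and AHRmKO 8 these r were -0.756, -0.514 and -0.704. *Slc25a28* was at 47.5 CPM in the mouse with the least slow fibre signal and at 29.2 CPM in the mouse with the most. In all, 13 of the 41 members had an unadjusted permutation p under 0.05 with this level, 9 positive and 4 negative, against 19.6% of all genes (9.93% positive).

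**Figure D4:**
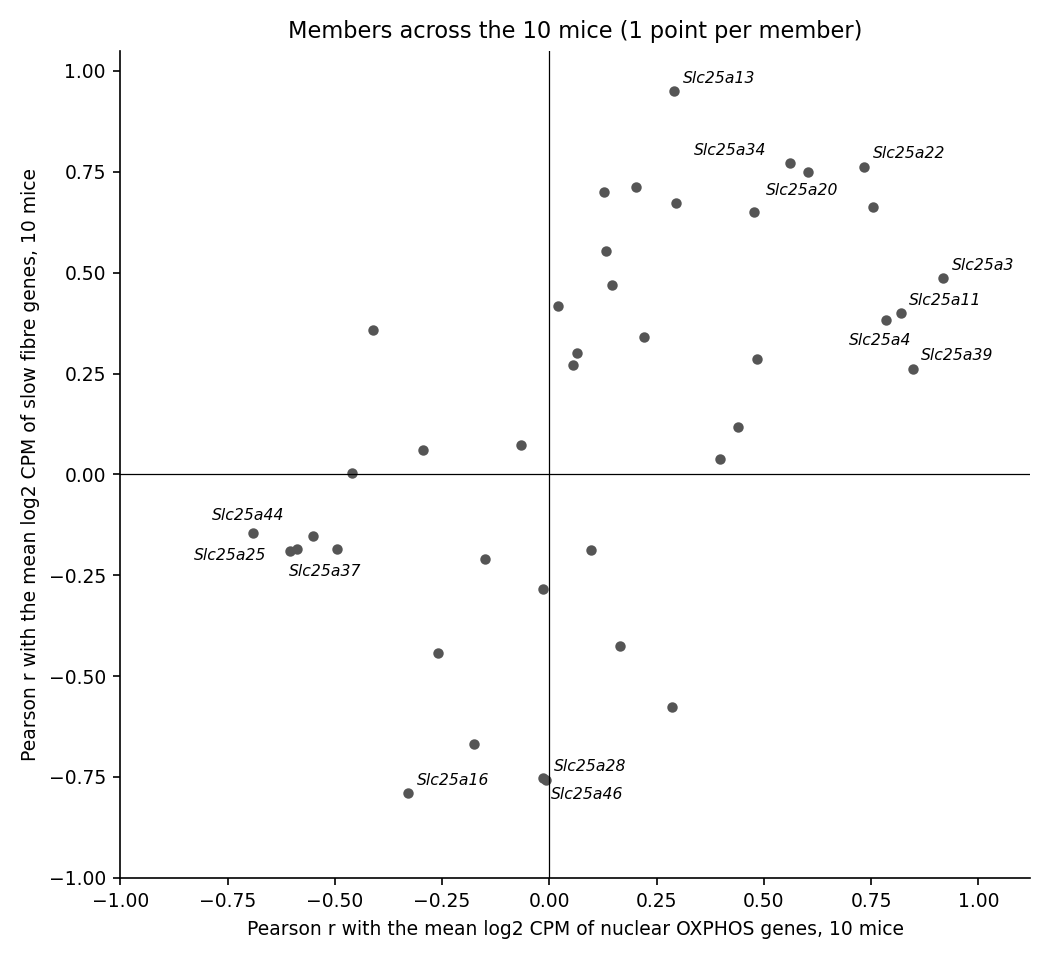
Pearson r of each of the 41 tested members, over 10 mice, with the OXPHOS level (horizontal) and the slow fibre level (vertical). *Slc25a3*, *Slc25a39*, *Slc25a11* and *Slc25a4* lie far right, *Slc25a13* at the top (0.950) with an r of 0.291 on the other axis, and *Slc25a16*, *Slc25a28* and *Slc25a46* at the bottom.

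**Figure D5:**
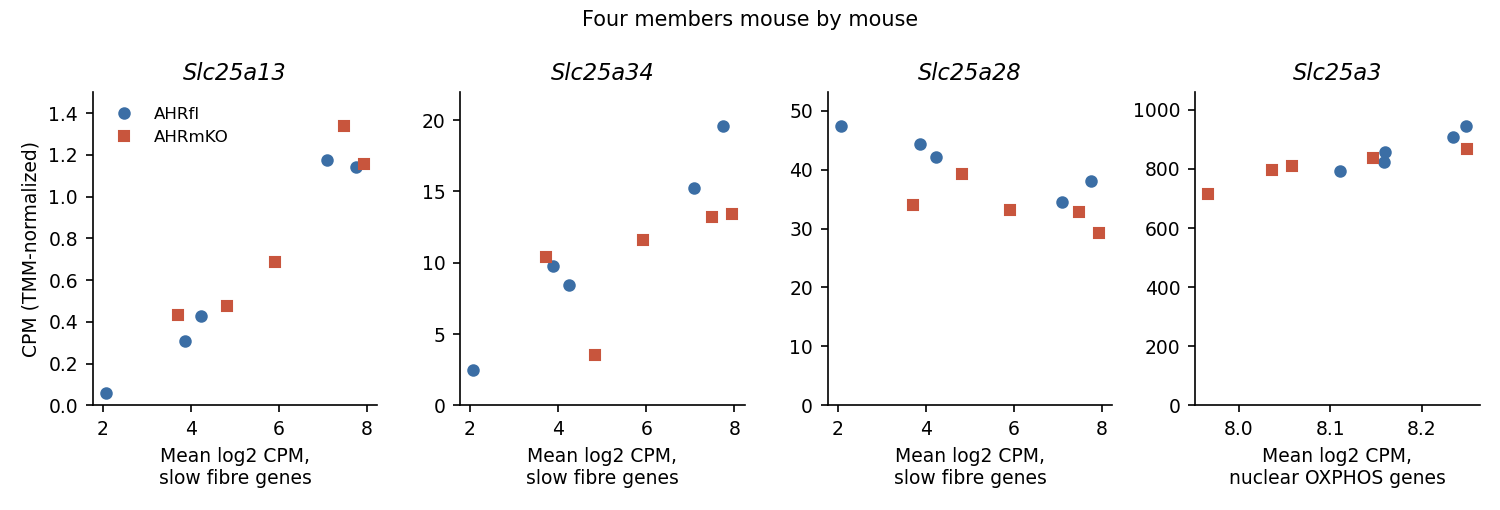
CPM of *Slc25a13*, *Slc25a34* and *Slc25a28* against the slow fibre level, and of *Slc25a3* against the OXPHOS level, 1 point per mouse (circles AHRfl, squares AHRmKO). *Slc25a13* runs from 0.0577 CPM in AHRfl 12 to 1.34 CPM in AHRmKO 22, with mice of both genotypes intermixed.

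The upstream sequences of the members at the top of the slow fibre axis are shown for *Slc25a13* (chr6:6217174-6217423, minus strand) and *Slc25a34* (chr4:141623835-141624084, minus strand), 250 bases from RefSeq, GRCm38.p6, 5′ to 3′. Capitals mark GCGTG or its complement CACGC in the former, and AAGGTCA or its complement TGACCTT, the motif of the oestrogen-related receptors, in the latter.
Slc25a13: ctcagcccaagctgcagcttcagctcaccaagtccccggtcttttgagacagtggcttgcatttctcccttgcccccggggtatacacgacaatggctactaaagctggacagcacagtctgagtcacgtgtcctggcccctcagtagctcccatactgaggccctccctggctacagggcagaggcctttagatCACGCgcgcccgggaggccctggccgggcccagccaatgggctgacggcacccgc
Slc25a34: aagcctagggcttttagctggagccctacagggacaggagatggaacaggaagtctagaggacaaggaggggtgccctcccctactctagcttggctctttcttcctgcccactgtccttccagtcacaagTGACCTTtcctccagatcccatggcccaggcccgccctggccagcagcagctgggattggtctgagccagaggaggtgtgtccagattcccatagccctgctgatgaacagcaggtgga
*Slc25a34* was the only member of the 38 whose promoter held AAGGTCA (2.63%, beside 5.38% of all genes in the table), beginning at base -119. Among tested members with a promoter this was 1 of 32 (3.1%), beside 3.98% of all tested genes with one. *Slc25a13* held the other core at -55.

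Counted over members, AHRmKO 34 stood lowest of the mice. The median member was 0.11 below its mean on the log2 scale there, and 13 of 41 members were above their mean. AHRfl 15 and AHRmKO 22 had 28 members above the mean, with medians of 0.075 and 0.068. AHRfl 12 was the lowest of all 10 mice for 11 members, among them *Slc25a12*, *Slc25a13*, *Slc25a34* and *Ucp2*, yet it was the highest for *Slc25a25*, *Slc25a28* and *Slc25a33*. AHRmKO 34 was the lowest for 7, among them *Slc25a3*, *Slc25a4*, *Slc25a11* and *Slc25a20*. AHRfl 12 had the lowest slow fibre level and AHRmKO 34 the lowest OXPHOS level. A low level did not always go with low carriers. AHRmKO 9 was next lowest in both levels (3.71 for slow fibre, 8.04 for OXPHOS), yet 27 of 41 members were above their mean there.

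Another 8 members were too low to test. They were *Slc25a2*, *Slc25a18*, *Slc25a21*, *Slc25a31*, *Slc25a41*, *Slc25a43*, *Slc25a48* and *Slc25a54*, with at most 17 counts in any mouse, and no direction is given for them. Some of them lie beside a tested member. On the X chromosome *Slc25a43* (0.0257 CPM per kb) ends 18448 bases before *Slc25a5* (22.5). On chromosome 17 *Slc25a41* (0.0492) lies 2056 bases from *Slc25a23* (3.00), and on chromosome 3 *Slc25a54* (0.0050) lies 6461 bases from *Slc25a24* (1.11). *Ucp3* and *Ucp2* are neighbours on chromosome 7, 6904 bases apart on the same strand, at 102.6 and 1.78 CPM per kb. On chromosome 12 the GENCODE gene bounds of *Slc25a29* and *Slc25a47*, on opposite strands, are 162 bases apart, at 2.55 and 0.886, although the RefSeq start of *Slc25a47* lies further away. Exons of 15 members overlap another annotated gene, on the opposite strand in most cases. Counting used strand only for a stranded library, and whether these were stranded is not stated. Reads from the shared stretches may therefore have been dropped or assigned to the wrong gene. The counts of these members may be too low or too high. The longest such overlap was 31.3% of the exon length of *Slc25a35*, with *Rangrf*.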

How the data were processed

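Paired-end reads of poly(A) RNA were trimmed (Trimmomatic 0.36), aligned to GRCm38 (STAR 2.5.2b) and, by the authors' account, counted with featureCounts per Ensembl gene where they mapped uniquely to exons. The authors deposited these raw counts, not normalized, 1 column per mouse. Strand was used in counting if the library kept it, but whether it did, and the Ensembl release, are not given in the sources used here. Names, positions and lengths come from GENCODE M21, which holds 49056 of the 49315 identifiers. The family, whose rule uses names alone, the gene lists and the named genes were chosen with earlier results of these data known.

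Counts were tested in R 4.3.3 with edgeR 4.0.16 (filterByExpr, minimum count 10, minimum total 15; TMM; robust quasi-likelihood test), with p-values adjusted by Benjamini-Hochberg across the 14714 genes tested. A prior count of 2 was added for log2 values, and CPM carry the TMM scaling. Exact permutation tests used all 252 assignments of mice. Correlations used 100000 permutations and adjustment over 41 members per score, with the same test over all genes as background. Alternatives were DESeq2 1.42.0, which the authors used, limma-voom (limma 3.58.1), other scaling and filters, covariates and leaving out each mouse. The fit was tested on simulated data. Members named are those with an unadjusted p under 0.05 or without overlap, the highest level and largest change in each role, a list of well-known carriers, and the 3 highest and 3 lowest correlations. Protein features were not analysed here. Promoter motifs were searched on both strands in the RefSeq table. Reads carry no molecular identifiers, so depth covers counting error only.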

Additional observations from a re-analysis of the deposited data

Results flagged for a closer look

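In 82 groups of 5 mice (41 members, both genotypes) 5 had a mouse standing apart from the other 4, where chance gives about 1 in 20, or 4.1. The measure is the gap to the nearest mouse over the whole range of the group, with a critical value of 0.71. *Slc25a17*, a peroxisomal carrier, was low in AHRmKO 34 (6.37 CPM, the others 9.10 to 9.69; gap 0.8521). *Slc25a25* was high in AHRfl 12 (290 CPM, the others 66.0 to 83.0; gap 0.8453). *Slc25a34* was low in AHRmKO 34 (3.56 CPM, the others 10.4 to 13.4; gap 0.8072). *Slc25a5* was low in AHRmKO 9 (30.1 CPM, the others 38.4 to 41.6; gap 0.7546). *Slc25a11* was low in AHRfl 12 (250 CPM, the others 290 to 305; gap 0.7501). Of these 5 flags, 4 fell in AHRfl 12 or AHRmKO 34.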

How the results depend on the processing

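No member had an adjusted p under 0.05 in edgeR, nor under the 8 other settings or with any mouse left out. No paired analysis was possible because the animal numbers do not repeat between genotypes and the labels give no litters. The count of members with an unadjusted p under 0.05 (5) was 4 or 5 under the other settings, beside 3.62% to 7.69% of all genes. It ran from 3 (without AHRfl 33) to 6 with a mouse left out, beside 4.72% to 8.16% of all genes. The edgeR fit without a filter on low counts tested all 49 members. There *Slc25a44* (unadjusted p = 0.0651) and *Slc25a30* (unadjusted p = 0.0761) were not under 0.05. Members without overlap were 2 to 3 with a mouse left out, beside 1.78% to 3.26% of all genes. The median log2 fold change (-0.03) ran from -0.060 to 0.011 with a mouse left out, above 0 without AHRmKO 19 or 34. Leaving out single mice turned the sign for 14 of 41 members, none of them called. Of these, 5 had been named for their level or change within a role or as well-known carriers. They were *Slc25a1* (-0.18 to 0.061), *Slc25a4* (-0.045 to 0.023), *Slc25a20* (-0.087 to 0.074), *Slc25a40* (-0.115 to 0.0168) and *Ucp2* (-0.15 to 0.025). A covariate for *Xist* counts being present, chosen after seeing the data, gave log2 fold changes of 0.047 for *Slc25a1* and 0.023 for *Slc25a20*. For none of these was a difference called, and the cause was not tested.

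Members correlated with the OXPHOS level (4, adjusted over the 41) were 2 by Spearman's rho, 0 without the 2 farthest mice, where fewer mice also lower the power, 9 with total counts only, and 0 to 3 with a mouse left out (0 without AHRmKO 34). Members correlated with the slow fibre level (1) were 5 with each genotype centred, 0 by Spearman's rho, 5 with total counts only, and 1 to 6 with a mouse left out (6 without AHRmKO 9, 3 without AHRmKO 34). Depth limits the lowest members most: 3 counts correspond to 0.0790 to 0.0987 CPM.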
